A study of Homo sapiens with 12 samples.

Results

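The sebaceous lineage genes described here are 10 genes that regulate or mark the cells of the sebaceous gland: the transcription factors SOX9, GATA3, GATA6, PRDM1, CEBPA and FOXO1, the stem cell receptor LRIG1, and the sebocyte markers MUC1, MC5R and FA2H. They, and the gene and marker lists used below, were chosen by name with earlier results of these data known. All 10 genes were found by symbol and identifier in both deposited tables, among 60630 identifiers that the tables share. RNA was sequenced from SZ95 sebocytes, human sebaceous gland cells that were immortalised and are grown as an established line, in 12 libraries. The 4 groups of 3 libraries were LA+RVT, LA, PGN+RVT and PGN, and the design text calls the 3 libraries of a group biological replicates. RVT is resveratrol, a plant polyphenol, by the series title, which names lipid accumulation and inflammation as the subjects of the study. The labels leave the abbreviations LA and PGN open. Here LA is taken to be linoleic acid, which sebocytes store as lipid, and PGN peptidoglycan, the bacterial wall polymer that triggers inflammation. Every group therefore carried a stimulus, no untreated group was analysed here, and the labels give no dose and no time. All libraries came from 1 line, so the values describe that line in culture and not a gland with its ducts, stem cells and stroma.

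Sebaceous glands renew themselves from stem cells at their edge and in the adjoining hair follicle. As their descendants move inward they fill with lipid, and at the end of differentiation they burst and release it as sebum. In mouse skin, Lrig1 marks stem cells of the junctional zone that feed the gland, Sox9 is needed for hair follicle stem cells and for the gland to form, and Gata6 marks cells of the sebaceous duct. PRDM1, also called BLIMP1, is a transcriptional repressor found in sebaceous progenitors and in differentiating sebocytes. C/EBP factors and PPARG switch on lipid genes as sebocytes mature, and FOXO1 is the insulin-restrained factor that opposes them in fat cells.

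Expression was deposited as TPM, a share of the library's transcripts scaled to transcript length, so depth is unknown and no counting error can be given. Per library, 14489 to 15452 genes had 1 TPM or more. The libraries carried the epithelial and sebocyte keratin KRT7 at 1203 to 1753 TPM on average by group, and 10 or 11 of the 16 sebocyte markers averaged 1 TPM or more in each group. By group mean, MGST1 had 299 to 388 TPM, SCD 121 to 171, DGAT2 21.7 to 33.1, SOAT1 17.5 to 24.2 and PLIN2 3.86 to 9.48 TPM. Other markers of the list were absent or close to it: AWAT2 and MC5R were listed at 0 in all 12 libraries, and KRT79 did not exceed 0.21 TPM nor AWAT1 0.17 TPM. The summed level of the sebocyte markers, mostly KRT7, was 2146 to 2181 TPM in LA+RVT libraries against 1917 to 1954 TPM in LA libraries. It was 2458 to 2499 TPM in PGN+RVT libraries against 2420 to 2503 TPM in PGN libraries. KRT7 averaged 1471 TPM in LA+RVT against 1203 TPM in LA libraries, while the other markers moved both ways. MUC1 and FA2H, which are also lineage genes, are part of this sum, and both averaged lower in LA+RVT than in LA libraries. The 9 keratinocyte markers, mostly KRT5, summed to 234 to 246 TPM in LA+RVT libraries against 262 to 281 TPM in LA libraries. Their sum was 502 to 520 TPM in PGN+RVT libraries against 678 to 695 TPM in PGN libraries. Single keratinocyte markers moved both ways with RVT under each stimulus. The 6 immune markers, nearly all of it CD68, summed to 54.6 to 58.2 TPM in LA+RVT against 47.9 to 51.4 TPM in LA libraries, and to 52.2 to 53.6 TPM in PGN+RVT against 33.7 to 37.1 TPM in PGN libraries. The 5 endothelial markers, mostly CDH5, summed to 7.24 to 8.11 TPM in LA+RVT against 17.5 to 18.0 TPM in LA libraries. Their sum was 23.4 to 24.2 TPM in PGN+RVT against 24.8 to 26.5 TPM in PGN libraries. The 6 melanocyte markers, mostly MITF and with TYR at 0, summed to 31.3 to 33.6 TPM in LA+RVT against 25.7 to 27.4 TPM in LA libraries. Their sum was 29.8 to 31.2 TPM in PGN+RVT against 19.4 to 25.0 TPM in PGN libraries. The 8 fibroblast markers (DCN at 0) summed to between 10.4 and 16.4 TPM, with all groups overlapping. Of the 6 sweat gland markers only KRT19, which many epithelia share, averaged 1 TPM or more, while SCGB1D2, SCGB2A2 and DCD were at 0, and their sum was 1715 to 1752 TPM in LA+RVT against 1630 to 1687 TPM in LA libraries and 2337 to 2437 TPM in PGN+RVT against 2141 to 2209 TPM in PGN libraries. The part of these shifts in the results on the lineage genes was not tested.

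With RVT on top of LA, SOX9 rose 1.73 times and GATA3 1.34 times, while MUC1 fell to 0.687 of its level with LA alone. With RVT on top of PGN, SOX9 rose again, 1.75 times, while PRDM1 fell to 0.492 and GATA6 to 0.561 of their levels with PGN alone. These ratios are of group means in TPM. CEBPA averaged 2.07 TPM in PGN+RVT and 0.897 TPM in PGN libraries, so it reached the test with PGN only through the PGN+RVT libraries, and its call was lost without the filter. Of the 10 genes, 8 averaged 1 TPM or more in each comparison and were tested, while LRIG1 and MC5R did not. In the LA libraries 2 of the 8 were higher and 1 was lower by limma at an adjusted p under 0.05, where 15.7% of all 15409 genes tested were called, 10.7% as higher and 5.07% as lower. In the PGN libraries 2 of 8 were higher, SOX9 and CEBPA, and 2 lower, where 15.6% of 14622 genes were called, 10.6% as higher and 4.92% as lower. As a description only, the median log2 difference over the 8 tested genes was -0.07 with LA and 0.0039 with PGN, against 0.04 and 0.06 over all genes tested. With the library medians set equal, the split of all calls moved to 1041 higher and 1080 lower in the LA libraries, against 1645 and 781 as deposited, and to 850 higher and 1020 lower in the PGN libraries, against 1557 and 720. Each lineage gene called with the deposited values was called in the same direction with the medians set equal. In a culture of mixed states, fewer cells of a type and less RNA per cell cannot be told apart in such bulk values.

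**Figure D1:**
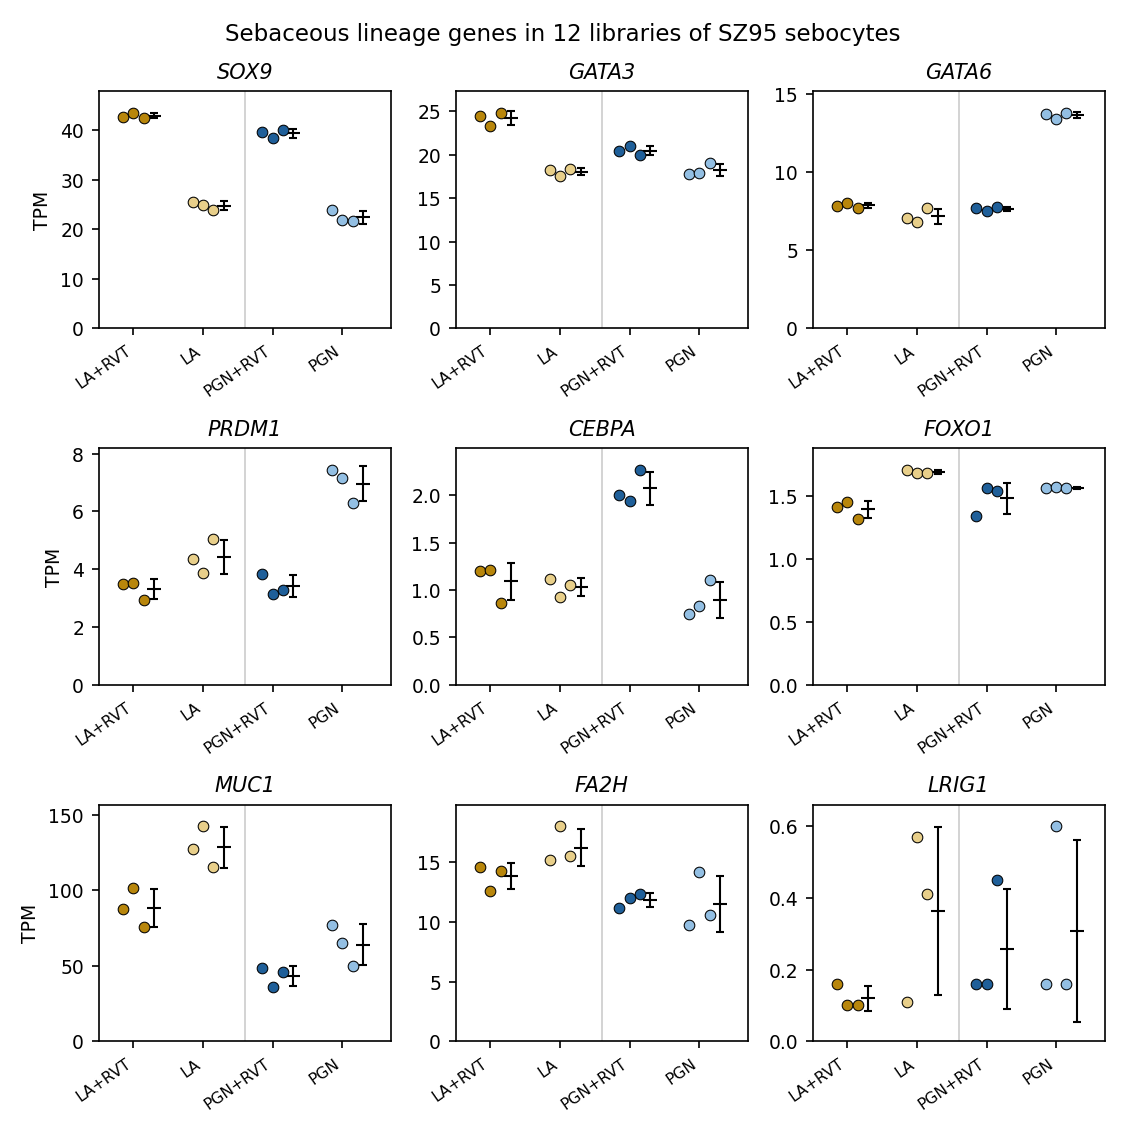
TPM (linear axis from 0) of 9 lineage genes in each of the 12 libraries; points are libraries, and the bar beside them is the group mean ± SD of 3. SOX9 lies at 38.3 to 43.4 TPM with RVT under either stimulus and at 21.5 to 25.5 TPM without it, and GATA6 stands at 13.4 to 13.8 TPM in PGN libraries only, with the other 9 libraries at 6.79 to 8.05 TPM. MC5R, listed at 0 throughout, is not drawn.

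The promoters of the 5 genes called in 1 stimulus or in the difference between stimuli, apart from SOX9, are shown because they differ widely in their core elements. Each is the 250 bases upstream of a RefSeq transcript start on GRCh38.p14, written 5′ to 3′ on the strand of the gene, with capitals marking every match to the motifs searched. Where a gene has several starts, the window with the most matches is shown, and the farthest upstream of equals. The PRDM1 window is chr6:106098691-106098940 on the + strand, at the downstream of 2 starts. The other PRDM1 window, at the upstream start, holds 0 matches. The GATA3 window is chr10:8053391-8053640 on the + strand, at 1 of 6 starts, with 7 matches against 1 to 5 in its other windows. The GATA6 window is chr18:22169339-22169588 on the + strand, the CEBPA window chr19:33302535-33302784 on the - strand, and the MUC1 window chr1:155192916-155193165 on the - strand, at 1 of 2 starts.
PRDM1: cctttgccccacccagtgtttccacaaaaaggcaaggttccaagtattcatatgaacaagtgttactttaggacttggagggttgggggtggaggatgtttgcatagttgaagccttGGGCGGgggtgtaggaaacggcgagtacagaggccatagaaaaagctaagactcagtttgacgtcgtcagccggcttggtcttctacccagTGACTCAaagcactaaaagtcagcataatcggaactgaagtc
GATA3: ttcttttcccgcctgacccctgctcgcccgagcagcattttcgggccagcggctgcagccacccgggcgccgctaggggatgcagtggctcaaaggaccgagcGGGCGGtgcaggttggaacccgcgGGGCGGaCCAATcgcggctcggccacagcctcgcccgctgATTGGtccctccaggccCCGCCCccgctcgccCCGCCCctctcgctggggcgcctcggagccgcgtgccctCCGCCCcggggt
GATA6: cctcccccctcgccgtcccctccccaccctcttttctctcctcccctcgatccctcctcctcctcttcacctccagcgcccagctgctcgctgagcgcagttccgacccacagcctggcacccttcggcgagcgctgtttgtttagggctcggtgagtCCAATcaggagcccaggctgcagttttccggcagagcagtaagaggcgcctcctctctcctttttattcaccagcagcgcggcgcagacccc
CEBPA: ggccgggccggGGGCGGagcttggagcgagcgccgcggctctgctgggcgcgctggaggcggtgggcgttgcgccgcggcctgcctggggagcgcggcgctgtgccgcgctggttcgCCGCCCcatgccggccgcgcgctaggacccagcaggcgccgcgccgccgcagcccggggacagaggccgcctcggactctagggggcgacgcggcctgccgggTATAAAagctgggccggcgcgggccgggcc
MUC1: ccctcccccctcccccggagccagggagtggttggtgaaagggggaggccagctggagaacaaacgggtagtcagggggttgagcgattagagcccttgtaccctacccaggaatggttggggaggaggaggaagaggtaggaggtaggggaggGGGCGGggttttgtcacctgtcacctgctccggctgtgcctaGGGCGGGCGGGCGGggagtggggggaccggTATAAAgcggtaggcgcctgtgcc
All motifs were searched on both strands. For factors of the GATA family the word was AGATAA. The forkhead word, for FOXO1 and its relatives, was GTAAACA. The word for C/EBP factors was TTGCNNAA. For the SOX family it was ACAAAG. The AP-1 word was TGANTCA. The core promoter words were the CCAAT box, the TATA word TATAAA, and the GC box, written GGGCGG. The MUC1 window holds TATAAA at position -24 and 4 GC boxes, 3 of which overlap, and the CEBPA window holds TATAAA at -30 and 2 GC boxes. The PRDM1 window shown has the AP-1 word TGACTCA at -42 with a GC box further out. The GATA6 window has CCAAT at -92 as its single match. Of all 35116 promoter windows of this length, 42.6% hold a GC box, 32.0% the CCAAT box, 10.7% the TATA word and 6.57% the AP-1 word. The 9 lineage genes with a window (none is given for SOX9) have 19 windows in all, some overlapping, of which 14 hold a GC box, 7 the CCAAT box, 4 the TATA word and 3 the AP-1 word. The C/EBP and SOX words, in 9.05% and 13.7% of all windows, are in 1 GATA3 window each. The GATA and forkhead words, in 9.17% and 2.98% of all windows, are in none of the 19. A match is a description of the letters only.

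SOX9 encodes an HMG-box transcription factor (ENSG00000125398, chromosome 17, 72121020 to 72126420 on the + strand, GENCODE 29 on GRCh38). It had 42.66, 43.41 and 42.45 TPM in the LA+RVT libraries, against 25.51, 24.92 and 23.82 TPM in the LA libraries. In the PGN+RVT libraries it had 39.54, 38.32 and 40.07 TPM, against 23.93, 21.75 and 21.54 TPM in the PGN libraries. All 6 libraries with RVT were above all 6 without it. The log2 difference on the log2(TPM + 1) scale was 0.77 (SE 0.045, limma adjusted p = 0.000256) for LA+RVT over LA, and 0.79 (SE 0.062, limma adjusted p = 0.000497) for PGN+RVT over PGN. The effect with PGN minus the effect with LA was 0.017 (95% interval -0.14 to 0.17, limma adjusted p = 0.913), and its sign turned with the library medians set equal. By group mean the order was LA+RVT (42.8 ± 0.505 TPM), PGN+RVT (39.3 ± 0.897), LA (24.8 ± 0.858) and PGN (22.4 ± 1.32; SD, n = 3 each), where only LA and PGN overlapped. Levels of the LA and PGN tables are set side by side without a test, here and below, because the tables were deposited separately with different gene models.

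GATA3 and GATA6 are zinc-finger factors of the same family and followed different patterns. GATA3 (ENSG00000107485, chromosome 10, 8045378 to 8075203, +), which acts in the inner root sheath of the mouse hair follicle, had 24.51, 23.33 and 24.82 TPM in LA+RVT libraries, against 18.2, 17.61 and 18.39 TPM in LA libraries. It had 20.42, 21.07 and 19.99 TPM in PGN+RVT libraries, against 17.78, 17.86 and 19.06 TPM in PGN libraries. The groups did not overlap under either stimulus, and the gap was wider with LA. The log2 difference was 0.40 (SE 0.051, limma adjusted p = 0.00376) with LA, and 0.16 (95% interval 0.017 to 0.30, limma adjusted p = 0.126) with PGN. The difference between these effects, -0.24 (SE 0.072), had a limma adjusted p of 0.0437, close to the threshold of 0.05. It lost its call without any of 10 of the 12 libraries (limma adjusted p of 0.0543 to 0.0962), and kept it without LA+RVT replicate 2 or PGN replicate 1.

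GATA6 (ENSG00000141448, chromosome 18, 22169443 to 22202528, +) had 7.85, 8.05 and 7.73 TPM in LA+RVT libraries, against 7.06, 6.79 and 7.72 TPM in LA libraries. It had 7.7, 7.53 and 7.76 TPM in PGN+RVT libraries, against 13.75, 13.43 and 13.79 TPM in PGN libraries. PGN libraries thus stood apart. The other groups had means of 7.88 ± 0.162 (LA+RVT), 7.66 ± 0.119 (PGN+RVT) and 7.19 ± 0.478 TPM (LA; SD, n = 3 each). PGN+RVT overlapped both LA+RVT and LA, and the lowest LA+RVT library (7.73 TPM) lay just above the highest LA library (7.72 TPM). GATA6 fell by 0.76 on the log2 scale with RVT over PGN (SE 0.067, limma adjusted p = 0.000796), while with LA the difference was 0.12 (95% interval -0.070 to 0.31, limma adjusted p = 0.371). The effects differed by -0.88 (SE 0.090, limma adjusted p = 9.67e-05), a call that held in every alternative run. Antisense genes GATA6-AS1 and AC091588.3 share 240 and 321 exonic bases with GATA6, and the sources used here do not say whether counting used strand. AC091588.3 averaged 0.333 TPM in PGN+RVT and 0.09 TPM in PGN libraries. GATA6-AS1 was at 1.62 TPM in PGN+RVT and 2.51 TPM in PGN libraries on average (limma adjusted p = 0.197). With LA, GATA6-AS1 averaged 0.917 TPM in LA+RVT and 1.88 TPM in LA libraries (limma adjusted p = 0.106). Where strand was not used, the reads of GATA6 and its antisense genes cannot be told apart in the shared bases.

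PRDM1 (ENSG00000057657, chromosome 6, 106086320 to 106109939, +) had 3.5, 3.51 and 2.93 TPM in LA+RVT libraries, against 4.34, 3.88 and 5.03 TPM in LA libraries. It had 3.85, 3.13 and 3.29 TPM in PGN+RVT libraries, against 7.45, 7.14 and 6.29 TPM in PGN libraries. PGN libraries were again the highest, LA libraries came next, and the RVT groups overlapped each other. PRDM1 fell by 0.85 on the log2 scale with RVT over PGN (SE 0.11, limma adjusted p = 0.00373), a call kept in every alternative. With LA the difference was -0.33 (95% interval -0.62 to -0.03), with a limma adjusted p of 0.133. The difference between the effects, -0.52 (SE 0.16), had a limma adjusted p of 0.0503, on the other side of the threshold, which 6 of 19 alternatives crossed. In mouse, Prdm1 represses Myc, and MYC, the growth-promoting factor, was measured beside it. MYC had 73.06, 72.61 and 77.42 TPM in LA+RVT libraries, against 46.15, 44.1 and 44.73 TPM in LA libraries, a log2 difference of 0.71 (limma adjusted p = 0.000256). It had 124.62, 129.09 and 133.4 TPM in PGN+RVT libraries, against 140.68, 136.44 and 134.1 TPM in PGN libraries, a log2 difference of -0.09 (limma adjusted p = 0.233). The part of PRDM1 in the level of MYC was not tested.

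CEBPA, a leucine-zipper factor of lipid-storing cells (ENSG00000245848, chromosome 19, 33299934 to 33302564, -), was expressed near 1 TPM in 3 of the 4 groups. It had 1.2, 1.21 and 0.86 TPM in LA+RVT libraries, against 1.12, 0.93 and 1.05 TPM in LA libraries. It had 2, 1.94 and 2.27 TPM in PGN+RVT libraries, against 0.75, 0.83 and 1.11 TPM in PGN libraries. The PGN+RVT libraries were the 3 highest of the 12. With PGN the log2 difference was 0.70 (SE 0.16, limma adjusted p = 0.0277), and with LA it was 0.04 (95% interval -0.37 to 0.44, limma adjusted p = 0.914), where the sign turned with the library medians set equal. Since the PGN libraries averaged under the filter of 1 TPM, CEBPA was tested only because it was high in PGN+RVT, and without the filter the limma adjusted p was 0.0534. The call with PGN was also lost without PGN replicate 1 or 2 (limma adjusted p = 0.0640 and 0.0785) and without PGN+RVT replicate 1, 2 or 3 (limma adjusted p = 0.0854, 0.0700 and 0.0953). The difference between the effects was 0.66 (SE 0.20, limma adjusted p = 0.0512). CEBPA lies over 2 antisense transcripts, AC008738.3 and AC008738.5, which share 659 and 482 of its exonic bases. They averaged 0.813 and 0 TPM in PGN+RVT libraries, where CEBPA averaged 2.07 TPM. In PGN libraries they averaged 0.823 and 0.363 TPM, where CEBPA averaged 0.897 TPM. The overlap makes the values of CEBPA uncertain where strand was not used.

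FOXO1 (ENSG00000150907, chromosome 13, 40469953 to 40666597, -) had group means between 1.39 and 1.69 TPM. It had 1.41, 1.45 and 1.32 TPM in LA+RVT libraries, against 1.71, 1.68 and 1.68 TPM in LA libraries, and these groups did not overlap. In PGN+RVT libraries it had 1.34, 1.56 and 1.54 TPM, against 1.56, 1.57 and 1.56 TPM in PGN libraries. The log2 differences were -0.17 (95% interval -0.50 to 0.16, limma adjusted p = 0.464) with LA and -0.05 (95% interval -0.39 to 0.29, limma adjusted p = 0.852) with PGN.

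LRIG1, a transmembrane protein that restrains ERBB receptors (ENSG00000144749, chromosome 3, 66378797 to 66501263, -), was barely detected. It had 0.16, 0.1 and 0.1 TPM in LA+RVT libraries, against 0.11, 0.57 and 0.41 TPM in LA libraries. It had 0.16, 0.16 and 0.45 TPM in PGN+RVT libraries, against 0.16, 0.6 and 0.16 TPM in PGN libraries. The groups overlapped under both stimuli. Without the filter, limma gave a log2 difference of -0.27 (adjusted p = 0.373) with LA and -0.05 (adjusted p = 0.902) with PGN. LRIG1 shares 907 exonic bases with the antisense gene SLC25A26, which averaged 13.4 TPM in LA+RVT and 16.2 TPM in LA libraries.

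MUC1 is a membrane mucin, known in pathology as epithelial membrane antigen, that stains differentiating sebocytes (ENSG00000185499, chromosome 1, 155185824 to 155192916, -). It was the most abundant of the 10 genes. MUC1 had 87.69, 101.47 and 75.94 TPM in LA+RVT libraries, against 127.44, 142.73 and 115.56 TPM in LA libraries. It had 48.87, 36.03 and 45.7 TPM in PGN+RVT libraries, against 76.99, 64.91 and 50.13 TPM in PGN libraries. All RVT libraries lay below all libraries of their stimulus alone, but PGN replicate 3 was only just above the highest PGN+RVT library. The log2 difference was -0.54 under each stimulus, with SE 0.12 and a limma adjusted p of 0.0242 for LA and SE 0.17 and a limma adjusted p of 0.0752 for PGN. The call with LA was lost without LA replicate 1 or 2 (limma adjusted p = 0.0721 and 0.0725) and without LA+RVT replicate 1 or 3 (limma adjusted p = 0.0642 and 0.0520). With PGN, MUC1 was called without PGN replicate 3 (limma adjusted p = 0.0275) and with all 12 libraries in one fit. The difference between the effects was 0.0047 (95% interval -0.49 to 0.50, limma adjusted p = 0.994), and its sign turned with the library medians set equal. By group mean the order was LA (129 ± 13.6 TPM), LA+RVT (88.4 ± 12.8), PGN (64.0 ± 13.5) and PGN+RVT (43.5 ± 6.69; SD, n = 3 each), and only LA+RVT and PGN overlapped. A gene on the same strand, AL713999.1, shares 48 exonic bases with MUC1 and went between 0 and 13.17 TPM within the LA+RVT libraries.

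MC5R, the melanocortin receptor whose loss in mice reduces sebaceous lipid (ENSG00000176136, chromosome 18, 13824149 to 13827323, +), was listed at 0 in each library of all 4 groups. FA2H makes the 2-hydroxy fatty acids of sphingolipids (ENSG00000103089, chromosome 16, 74712955 to 74774831, -). It had 14.6, 12.61 and 14.27 TPM in LA+RVT libraries, against 15.17, 18.03 and 15.49 TPM in LA libraries. It had 11.19, 12.02 and 12.32 TPM in PGN+RVT libraries, against 9.73, 14.15 and 10.56 TPM in PGN libraries. The groups did not overlap with LA and overlapped with PGN. The log2 difference was -0.22 (95% interval -0.43 to -0.0024, limma adjusted p = 0.159) with LA and 0.06 (95% interval -0.25 to 0.37, limma adjusted p = 0.809) with PGN, where its sign turned with the library medians set equal.

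**Figure D2:**
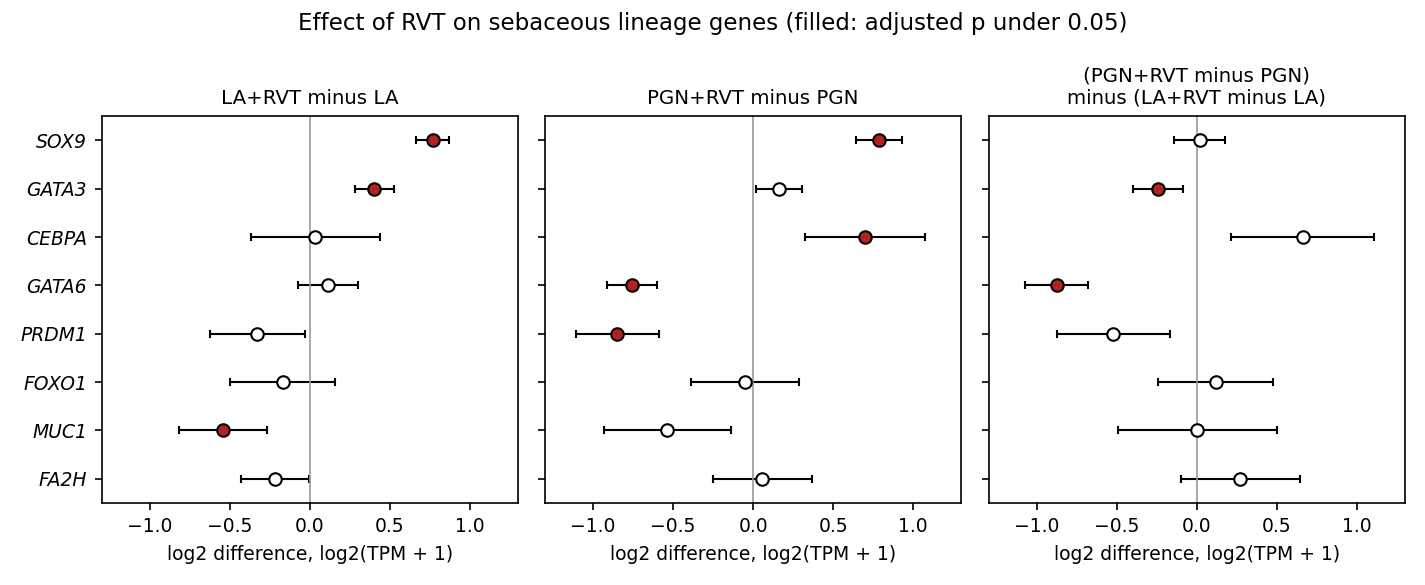
Log2 differences of the 8 tested genes on the log2(TPM + 1) scale with 95% intervals, for LA+RVT minus LA, PGN+RVT minus PGN, and the second minus the first; filled points have a limma adjusted p under 0.05. SOX9 stands at 0.77 and 0.79 in the first 2 panels, and GATA6 at -0.88 in the third.

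Whether the effect of RVT depended on the stimulus was tested as the effect with PGN minus the effect with LA. Of the 8 genes, 2 were called as lower, GATA6 and GATA3, and 0 as higher by limma, where 14.8% of 15177 genes were called, 7.73% as higher and 7.03% as lower. At an unadjusted p under 0.05, 3 were lower and 1, CEBPA, was higher. The median of this difference was 0.01 over the 8 genes, against 0.03 over all genes tested. PRDM1 and CEBPA, called with PGN (CEBPA with the filter only) and not with LA, missed the threshold in the test of the difference. MUC1, called with LA and not with PGN, had an estimated difference near 0 with a wide interval.

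**Figure D3:**
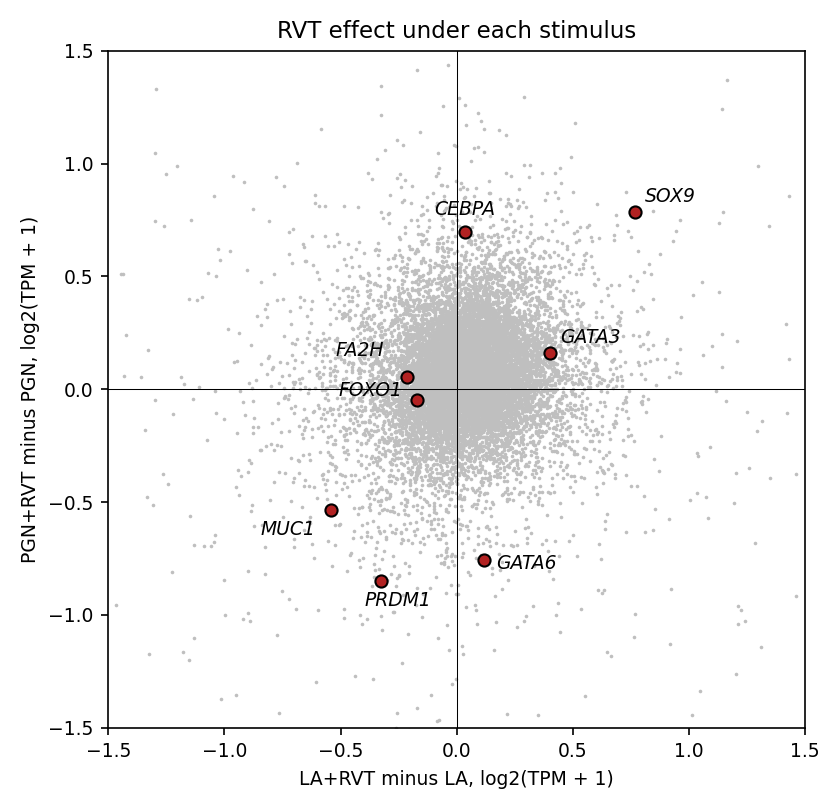
Log2 difference with LA (horizontal, LA+RVT minus LA) against that with PGN (vertical, PGN+RVT minus PGN) for 14126 genes in both fits, grey, and the 8 tested lineage genes, red; 92 genes lie outside the axes of ±1.5. SOX9 lies at the upper right, PRDM1 and MUC1 at the lower left, and GATA6 and CEBPA near the vertical line through 0.

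The stem cell and Wnt regulators around SOX9 and LRIG1 gave 4 higher and 1 lower of 16 tested with LA, and 2 higher and 4 lower with PGN, with median log2 differences of 0.0026 and -0.07. Over all genes tested, 10.7% were called as higher and 5.07% as lower with LA, and 10.6% and 4.92% with PGN. KLF5 fell with RVT under both stimuli, by 0.58 with LA (limma adjusted p = 0.000358) and by 0.38 with PGN (limma adjusted p = 0.00673). TP63, the factor of basal epidermal cells, had 2.67, 2.49 and 2.67 TPM in PGN+RVT libraries, against 5.21, 4.73 and 5.93 TPM in PGN libraries (log2 difference -0.80, limma adjusted p = 0.00533). The sum of the keratinocyte markers given above was lower with it, though KRT14 and TGM1 averaged higher. The part of these markers in this result was not tested. KLF4 (-0.53, limma adjusted p = 0.00328) and the basal integrin ITGA6 (-0.46, limma adjusted p = 0.0123) also fell with RVT over PGN. With LA, ITGA6 was called in the other direction, at 159 TPM in LA+RVT against 135 TPM in LA libraries. CTNNB1 was called higher under both stimuli. It averaged 189 TPM in LA+RVT against 166 TPM in LA libraries, and 224 TPM in PGN+RVT against 192 TPM in PGN libraries. Its call with LA was lost in 5 of 6 runs with 1 library left out. Of the Hedgehog pathway, which drives sebaceous growth in mice, 0 of 6 tested genes were called with LA and 0 of 5 with PGN by limma. At an unadjusted p under 0.05 there was 1 with LA, PTCH1, and there were 2 with PGN, SMO and SUFU, all higher.

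Among other transcription factors of sebocyte differentiation, 7 of 20 were higher and 2 lower with LA, and 3 were higher and 3 lower with PGN. Their median log2 differences were 0.02 and -0.02, and the shares of all genes called were 10.7% higher and 5.07% lower with LA, and 10.6% and 4.92% with PGN. PPARG, the nuclear receptor of sebocyte lipid synthesis, had 22.13, 23.59 and 23.66 TPM in PGN+RVT libraries, against 37.77, 39.19 and 39.23 TPM in PGN libraries. It fell by 0.72 on the log2 scale (limma adjusted p = 0.000473), while with LA the difference was -0.05 (limma adjusted p = 0.685). Like GATA6, PPARG was highest in the PGN libraries, with the other 9 libraries at 20.81 to 24.31 TPM. CEBPB, a relative of CEBPA, had 80.04, 68.1 and 62.77 TPM in LA+RVT libraries, against 37.87, 39.61 and 32.25 TPM in LA libraries. It had 76.83, 65.83 and 59.54 TPM in PGN+RVT libraries, against 132.19, 147.66 and 98.83 TPM in PGN libraries. CEBPB thus rose by 0.92 with LA (limma adjusted p = 0.00274) and fell by 0.88 with PGN (limma adjusted p = 0.0111). GATA2, a relative of GATA3 and GATA6, had 61.04, 63.65 and 65.66 TPM in PGN+RVT libraries, against 34.04, 32.89 and 37.79 TPM in PGN libraries. It rose by 0.85 with PGN (limma adjusted p = 0.000494), the direction opposite to GATA6, and its difference with LA was 0.03 (limma adjusted p = 0.783).

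**Figure D4:**
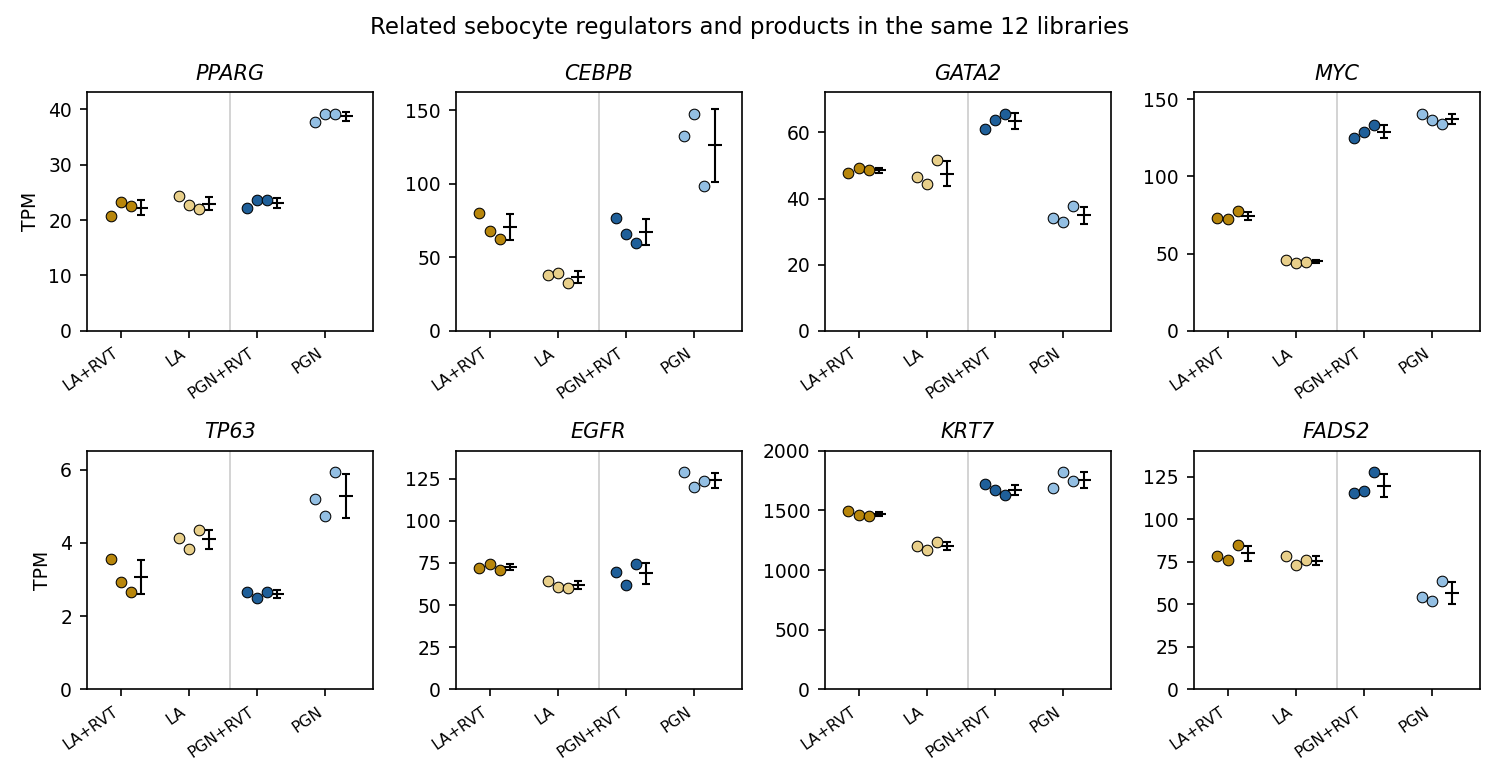
TPM (linear axis from 0) of 8 related regulators and products in the same 12 libraries, drawn as for the lineage genes and chosen after their values were seen. PPARG, TP63 and EGFR are highest in PGN libraries, FADS2 is highest in PGN+RVT libraries, and CEBPB is higher with RVT over LA and lower with RVT over PGN.

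Sebocyte products and lipid enzymes gave 3 higher and 1 lower of 24 tested with LA. With PGN, 10 of 23 were higher and 0 lower by limma, and at an unadjusted p under 0.05 11 were higher and 0 lower. Of all genes, 10.7% were called higher and 5.07% lower with LA, and 10.6% and 4.92% with PGN. The median log2 difference with PGN was 0.15, against 0.06 over all genes. FADS2, the desaturase that makes sapienic acid in sebum, had 115.33, 116.25 and 127.58 TPM in PGN+RVT libraries, against 54.26, 51.92 and 63.82 TPM in PGN libraries (log2 difference 1.07, limma adjusted p = 0.000499). FASN, the fatty acid synthase, rose by 0.67 (limma adjusted p = 0.00307) and the desaturase SCD by 0.46 (limma adjusted p = 0.00561). With LA, the keratins of the list moved both ways: KRT7 rose by 0.29 (limma adjusted p = 0.000805) and KRT18 by 0.31, while KRT17 fell to 260 TPM in LA+RVT, against 326 TPM in LA libraries (log2 difference -0.32, limma adjusted p = 0.000702). The fall of PPARG and the rise of these lipid enzymes with PGN+RVT were in opposite directions.

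The insulin and FOXO1 list gave 5 higher and 4 lower of 21 tested with LA, and 4 higher and 2 lower of 20 with PGN, where 15.7% of all genes were called with LA and 15.6% with PGN. FOXO1 itself was not called. IRS2, an insulin receptor adaptor, had 15.34, 16.44 and 15.09 TPM in LA+RVT libraries, against 10.35, 10.73 and 10.18 TPM in LA libraries (log2 difference 0.54, limma adjusted p = 0.00275). With PGN its log2 difference was -0.10 (limma adjusted p = 0.499). TXNIP, the glucose-uptake inhibitor, fell by 0.22 with LA (limma adjusted p = 0.00435) and rose by 0.29 with PGN (limma adjusted p = 0.0333), a call lost without PGN replicate 2 or any of the 3 PGN+RVT libraries (limma adjusted p of 0.0704 to 0.108). PDK4, which turns cells to fat oxidation, had 0.73, 0.8 and 1.11 TPM in LA+RVT libraries, against 2.5, 2.39 and 1.85 TPM in LA libraries. It averaged 0.88 TPM with RVT and reached the test only through the LA libraries, where it was high. The log2 difference was -0.79 (limma adjusted p = 0.0245), a call lost without LA replicate 1 or 2 (limma adjusted p = 0.0882 and 0.0853) or LA+RVT replicate 1 or 2 (limma adjusted p = 0.0657 and 0.0667). It did not pass the filter with PGN. SOD2, the mitochondrial superoxide dismutase and also a target of NF-kB, had 37.74, 35.68 and 34.1 TPM in PGN+RVT libraries, against 91.08, 86.92 and 87.8 TPM in PGN libraries (log2 difference -1.28, limma adjusted p = 3.42e-05). CITED2, a transcriptional coregulator, had 27.39, 29.31 and 28.77 TPM in PGN+RVT libraries, against 8.5, 10.62 and 9.01 TPM in PGN libraries (log2 difference 1.51, limma adjusted p = 0.000173).

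Beside LRIG1, the ERBB receptors and their adaptors gave 3 higher and 0 lower of 11 tested with LA by limma (5 higher and 1 lower at an unadjusted p under 0.05), and 2 higher and 1 lower with PGN, beside 15.7% and 15.6% of all genes called. EGFR had 71.81, 74.25 and 70.85 TPM in LA+RVT libraries, against 64.42, 60.95 and 60.07 TPM in LA libraries. It had 69.72, 61.98 and 74.41 TPM in PGN+RVT libraries, against 128.78, 120 and 123.5 TPM in PGN libraries. EGFR fell by 0.85 with PGN (limma adjusted p = 0.000664), and its rise of 0.22 with LA (limma adjusted p = 0.0142) was lost without LA replicate 2 or 3 (limma adjusted p = 0.0528 and 0.0518). ERBB2 rose by 0.24 with PGN (limma adjusted p = 0.0252), lost without PGN replicate 2 (limma adjusted p = 0.0520) or any PGN+RVT library (limma adjusted p of 0.0508 to 0.0964). ERBB3 rose by 0.43 with PGN (limma adjusted p = 0.0436), lost without PGN replicate 1 or 2 or PGN+RVT replicate 1 or 3 (limma adjusted p of 0.0941 to 0.137). With LA the log2 difference of ERBB3 was -0.23 (limma adjusted p = 0.0779).

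Of the other membrane mucins and the enzymes that cut or glycosylate MUC1, 0 were higher and 3 lower of 11 tested with LA by limma (1 higher and 5 lower at an unadjusted p under 0.05), and 2 were higher and 2 lower with PGN. The shares of all genes called were 15.7% and 15.6%. GALNT2, which starts O-glycan chains, fell under both stimuli, by 0.38 with LA (limma adjusted p = 0.000805) and by 0.45 with PGN (limma adjusted p = 0.00112). The mucin MUC20 had 102.51, 94.23 and 101.22 TPM in LA+RVT libraries, against 121.58, 116.15 and 115.26 TPM in LA libraries. It had 46.18, 47.13 and 52.39 TPM in PGN+RVT libraries, against 28.88, 29.45 and 32.46 TPM in PGN libraries. MUC20 fell by 0.24 with LA (limma adjusted p = 0.0123) and rose by 0.66 with PGN (limma adjusted p = 0.00181), where MUC1 lay lower in all PGN+RVT libraries.

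Melanocortin signalling lacked its ligand precursor POMC and the accessory protein MRAP, both listed at 0 in all 12 libraries. Of 8 genes tested, 1 was higher with LA and 2 with PGN, and 0 were lower under either stimulus by limma, also at an unadjusted p under 0.05, where 15.7% of all genes were called with LA and 15.6% with PGN. MC1R, the 1 melanocortin receptor that passed the filter, had 3.29, 2.02 and 1.78 TPM in LA+RVT libraries, against 2.72, 3.28 and 2.51 TPM in LA libraries. It had 2.06, 2.07 and 1.95 TPM in PGN+RVT libraries, against 1.53, 1.25 and 1.31 TPM in PGN libraries (log2 difference 0.36, limma adjusted p = 0.136). Hydroxylated sphingolipid synthesis, the pathway of FA2H, gave 3 higher and 0 lower of 17 tested with LA by limma (6 and 0 at an unadjusted p under 0.05), and 3 higher and 1 lower with PGN, against the same shares of all genes. UGCG, the glucosylceramide synthase, had 46.46, 43.53 and 47.4 TPM in PGN+RVT libraries, against 88.7, 78.02 and 73.69 TPM in PGN libraries (log2 difference -0.79, limma adjusted p = 0.0012).

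Genes with patterns most like those of the called lineage genes were ranked by the root mean square difference of log2(TPM + 1), centred within each table, over 12 libraries and among 10530 genes that averaged 5 TPM or more in both tables. ENC1 (0.073), CFTR (0.089) and IFIT1 (0.093) lay nearest to SOX9. VEGFC (0.044), CAV1 (0.045) and MIR205HG (0.063) lay nearest to GATA6. The nearest to PRDM1 were IL20RB (0.099), FHOD3 (0.102) and VNN1 (0.105). DNAJB1 (0.033), FLII (0.041) and KIFC3 (0.044) lay nearest to GATA3. OSBPL7 (0.061), GRHL3 (0.068) and ABHD4 (0.074) were the nearest to CEBPA, and COX19 (0.135), ABCG2 (0.140) and FAM107B (0.147) to MUC1. CFTR averaged 27.1 TPM in LA+RVT against 14.3 TPM in LA libraries, and 25.9 TPM in PGN+RVT against 16.8 TPM in PGN libraries. VEGFC averaged 7.90 TPM in PGN+RVT against 14.03 TPM in PGN libraries.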

How the data were processed

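RNA of SZ95 sebocytes was sequenced in 12 libraries, grouped and numbered by their titles. The authors deposited TPM in 2 tables, for the LA and the PGN libraries. The submitters' processing notes list RSEM 1.3.1, HISAT2 2.1.0, DESeq2 1.24.0 and the build GRCh38.p13 without their roles. They name no annotation release and no strand setting. The tables hold 60671 and 60666 genes. The columns sum to between 994373 and 997060 TPM, so values are shares, and a gene can fall because others rise. Replicates of a group had identical values in 0.636% to 1.04% of genes, so no 2 libraries were the same.

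Tests used limma 3.58.1 in R 4.3.3 on log2(TPM + 1) with a trended prior variance, for genes averaging 1 TPM or more, two-sided, Benjamini-Hochberg adjusted over all genes tested, with a threshold of 0.05. Fold changes on this scale understate changes of low genes. Each stimulus used its own 6 libraries, and the difference of effects used 12. The script was tested on simulated data. Whether replicates came from separate cultures is stated only in the design text, so p-values cover the spread between these libraries only.

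The 10 genes, 9 gene lists and marker lists were chosen with earlier results of these data known. Named list genes are among the 4 with the smallest p in either comparison, or were set by name (MYC, EGFR, ERBB2, ERBB3, MRAP, POMC, PPARG, PDK4, IRS2 and TXNIP), and MC1R, PTCH1, SMO and SUFU fall under the first part of this rule. Some genes the rule names are not reported here. Neighbours in pattern are the 3 closest genes, and genes that overlap a lineage gene were named for their position. Loci came from GENCODE 29 and promoters from RefSeq on GRCh38.p14, which gave windows for 9 of the 10 genes. Alternatives were pseudocounts of 0.1 and 0.5, no filter or 5 TPM, equalised library medians, a replicate block, robust or untrended variance, all 12 libraries in one fit, and each library left out.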

Additional observations from a re-analysis of the deposited data

Results flagged for a closer look

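The effect of RVT differed between the stimuli by limma at an adjusted p under 0.05 for 2 of the 8 tested lineage genes, where 14.8% of all 15177 genes tested were called. The effect with PGN minus the effect with LA was -0.24 on the log2 scale for GATA3 and -0.88 for GATA6. GATA3 lost this call in 12 of 20 alternatives, while GATA6 kept it in all 20. The same difference was called for related genes, with values of -0.80 for MYC, -1.07 for EGFR, 0.66 for ERBB3, -0.67 for PPARG, -0.64 for IRS2 and 0.51 for TXNIP. It was -1.81 for CEBPB, 0.82 for GATA2, -0.36 for KRT7, 0.99 for FADS2 and 0.91 for MUC20. With 3 libraries in a group, none was tested for standing apart from the other 2.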

How the results depend on the processing

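Of 392 recomputed values of the lineage genes, 339 kept their direction and their side of the threshold, 25 lost a call, 12 gained one and 16 turned sign. Every value that turned sign was uncalled. The log2 difference of CEBPA with LA was -0.012 with the library medians set equal and -0.0064 to 0.12 with 1 library left out. That of FA2H with PGN was -0.0021 with the medians set equal and -0.044 to 0.20 with 1 library left out. The difference between stimuli was -0.0018 and -0.0091 to 0.064 for SOX9, and -0.014 and -0.16 to 0.15 for MUC1, in the same order. For other named genes, 1982 of 2237 values stayed on their side and 255 lost a call.

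Without a filter 1610 genes were called with LA, against 2426, and 1384 with PGN, against 2277, where more low genes were tested. Leaving out 1 library gave 1428 to 1690 calls with LA, 1095 to 1861 with PGN and 1714 to 2250 for the difference, with fewer samples. Of the lineage genes, 2 to 3 were then called with LA, 3 to 5 with PGN and 1 to 3 in the difference. With all 12 libraries in one fit, 3270 genes were called with PGN, 6 of them lineage genes. These 6 included MUC1 and GATA3 (limma adjusted p = 0.0433 for GATA3), which were not called with PGN in the main fit. Without a trended variance 4 were called in the difference, and the cause was not tested. MUC1 lost its call with LA without a filter and without a trend (limma adjusted p = 0.0682 and 0.0577), CEBPA lost its call with PGN without a filter (limma adjusted p = 0.0534), and GATA3 lost the difference with a robust variance (limma adjusted p = 0.0528).

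Deviations of same-numbered libraries correlated at -0.070 to 0.041 over the genes tested. These values span all such genes and do not show whether the numbers pair libraries for a single gene. With a replicate block 1502 genes were called with LA, and 1 lineage gene, GATA6, in the difference. Under that block CEBPA had a limma adjusted p of 0.0636 with PGN. MUC1 with LA had SE 0.037 and a limma adjusted p of 0.00722 under the block, the lowest of its alternatives. At a filter of 5 TPM, CEBPA and FOXO1 were not tested, nor was PRDM1 with LA or in the difference. Depth is unknown, which limits CEBPA, FOXO1 and LRIG1 most.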

Other observations

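SOX9 has an antisense neighbour, SOX9-AS1, with no exonic base in common. It averaged 1.53 TPM in LA+RVT against 1.77 TPM in LA libraries, and 0.497 TPM in PGN+RVT against 0.357 TPM in PGN libraries. ATG5, an autophagy gene that overlaps PRDM1 in span on the other strand with no shared exonic base, averaged 14.8 TPM in PGN+RVT against 16.0 TPM in PGN libraries (limma adjusted p = 0.449).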
